A study of Mus musculus with 20 samples.

Results

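This comparison set the CD45- fraction of dissociated BRAF V600E mouse melanomas (3 samples) against complete tumors of the same genotype (5 samples). It used 8 of the 20 microarrays of the series, chosen by their sample titles, and all 19504 named genes. The tumors of both groups came from Tyr::CreERT2;BrafCA/CA mice, called B. In these mice a tamoxifen-inducible Cre recombinase, driven by the promoter of the melanocyte enzyme tyrosinase, switches on BrafV600E. Both groups had received 4-hydroxytamoxifen on the skin at 5 mg/ml on postnatal days 2.5 and 3.5, and were irradiated once with UVB, 6.24 kJ/m², on the later of these days. All tumors were excised when they reached endpoint size, and the animals' age at that point is not given. For the CD45- samples, tumors were broken up mechanically and with enzymes, and cells that bound magnetic beads against CD45 were taken out. The CD45- sample is the unbound remainder, and its label calls it tumor and stroma. The complete tumors are not described as dissociated, so cell makeup, dissociation and bead selection cannot be told apart in any difference below. The other 12 arrays (B CD45+ cells, and the 3 kinds of sample from B;p38α mice, whose melanocytes also lost p38α) appear only beside these results.

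CD45, encoded by Ptprc, is a phosphatase on the surface of nearly all leukocytes, and selection for it is a common way to part immune cells from a tumor. What is left in a skin melanoma includes melanoma cells, fibroblasts, vessels and nerves. An excised tumor, later dissociated or not, can also carry tissue around it, such as fat, hair follicles and the thin muscle layer beneath mouse skin. Muscle fibers are long multinucleate cells. How much such tissue each group held at excision was not measured. In bulk RNA, fewer cells of a type and less RNA per cell cannot be told apart.

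Every level below is a log2 expression value, and every difference is B CD45- minus B complete in log2 units, so that 1 unit is a doubling. Levels of different genes come from different probes and are not set against each other. The titles number biological replicates but do not say that each is a separate animal, so a p-value covers only the spread among these samples, which may in part be technical. B CD45- replicate 1 stood apart from the other 7 arrays. Its interquartile range was 2.95, against 3.66 to 3.83 in the others, and its median correlation with its own group over all genes was 0.911, against 0.939 to 0.974. Results are therefore also given without it.

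The selected protein's own transcript did not separate the groups. Ptprc read 9.95, 9.66 and 9.67 in the CD45- samples, against 9.46, 9.68, 10.46, 10.17 and 10.18 in complete tumors, and 11.74, 12.11 and 12.14 in B CD45+ cells. The CD45- values lay inside the range of the complete tumors and below all CD45+ values. The difference was -0.23 (SE 0.25), with a limma adjusted p of 0.657 and a two-sided exact permutation p of 0.321, where 0.0357 is the smallest that 3 against 5 samples allow. Among 12 genes shared by leukocytes, 0 passed the test in either direction (limma, p adjusted over all 19504 genes by Benjamini and Hochberg and under 0.05), 3 had an unadjusted p under 0.05, all lower (8.41% of all genes did so downward), and their median difference was -0.39. Mean levels of that list ran from 8.43 to 8.80 in CD45- samples and from 8.54 to 9.53 in complete tumors, with 10.58 to 10.73 in CD45+ cells. The CD45- range thus lay below that of CD45+ cells and overlapped that of complete tumors.

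Over all genes, 25 were higher (0.128% of those tested) and 78 lower (0.4%) in CD45- samples than in complete tumors. The median difference of all genes was 0.00. Without CD45- replicate 1 the counts were 33 and 61, and 11 of the 25 and 54 of the 78 genes kept their call. None of the 103 genes together (0.528%) overlapped between the groups, so a lack of overlap adds no support for a gene that passed. Over all genes, 5.53% had every CD45- sample above every complete tumor, and 6.63% had every one below. The 103 genes were then sorted by their textbook role, after their values were seen. Of the 78 lower genes, 45 belong to skeletal muscle, 21 to myeloid cells and 2 to interferon responses. The 25 higher genes included 6 of inflammation and stress, 6 of matrix and cell surface, 3 that encode SOX factors or a Hedgehog receptor, and 4 olfactory receptors.

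**Figure D1:**
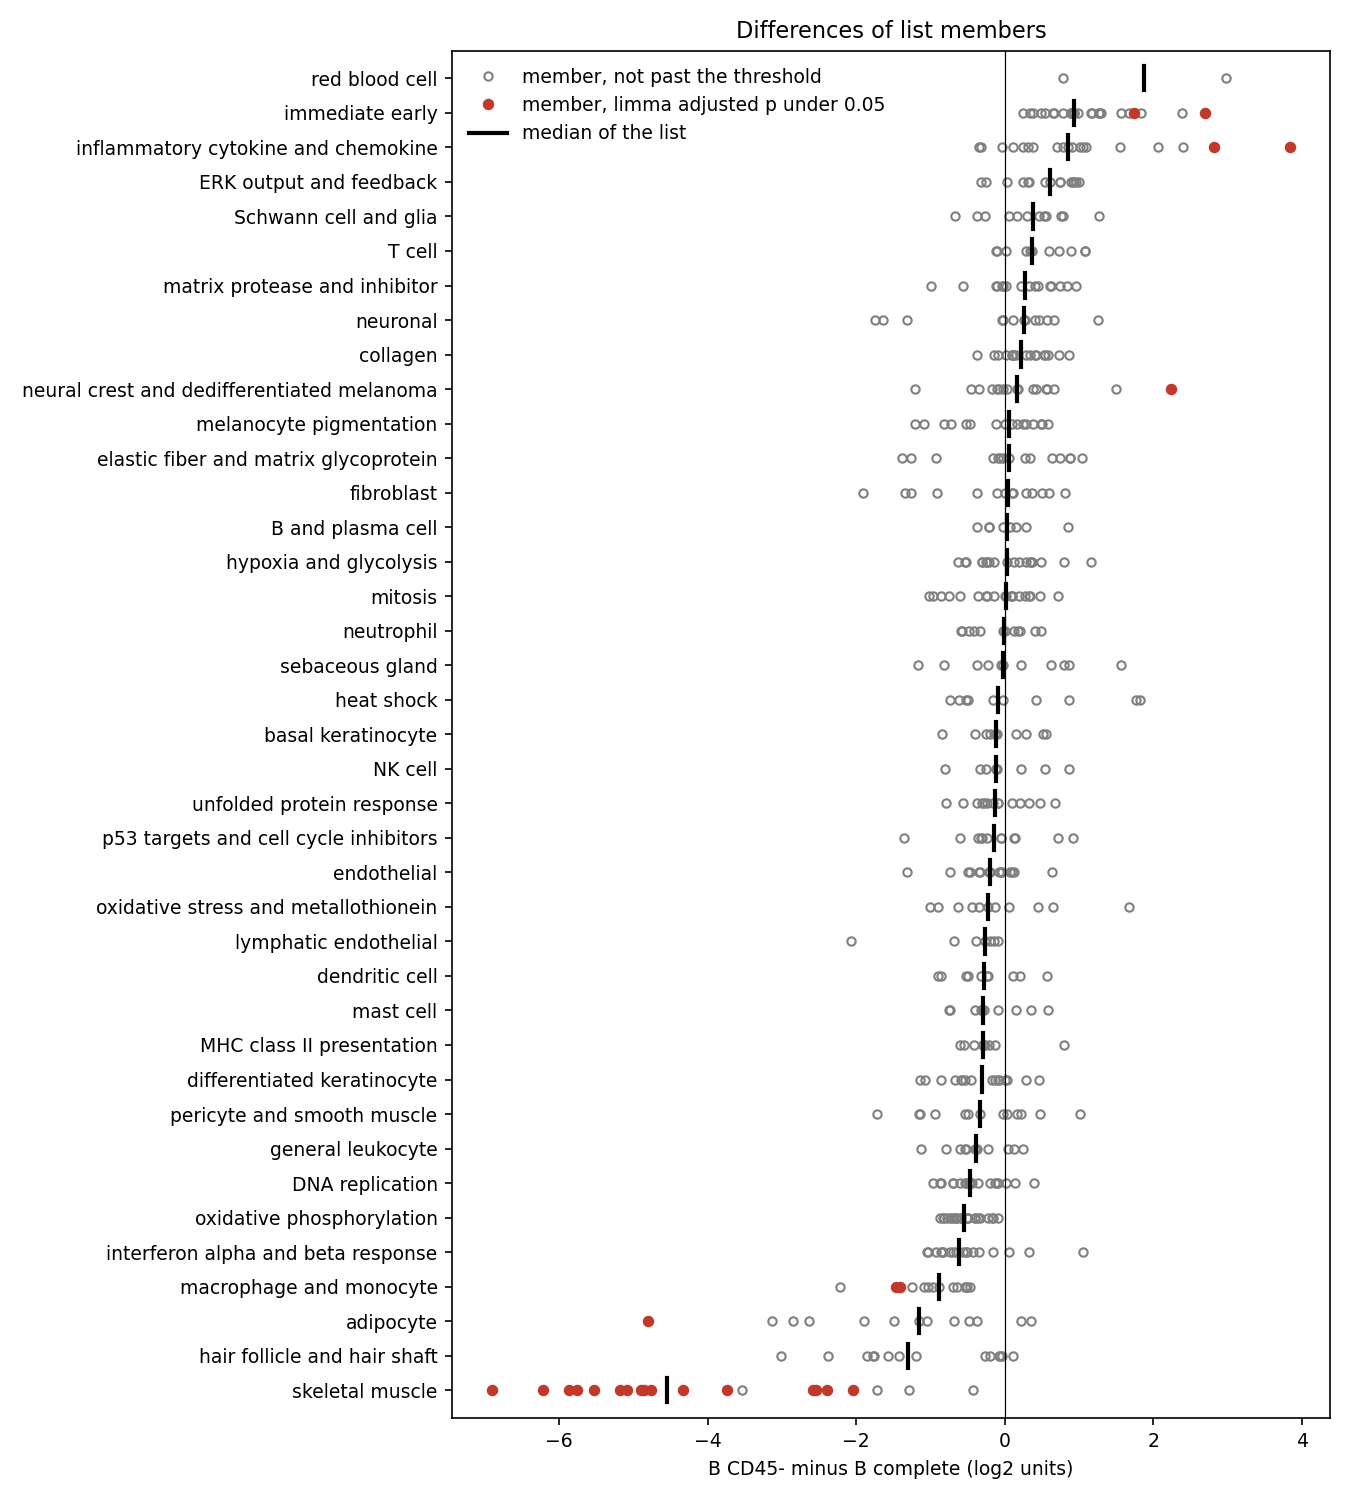
Difference between B CD45- and B complete samples (log2 units, horizontal) for each measured member of the gene lists (vertical, ordered by median). Red points passed limma at an adjusted p under 0.05, open points did not, and black bars mark list medians. The skeletal muscle list lies far to the left, with a median of -4.55, and all 26 immediate early genes lie to the right of 0.

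Skeletal muscle transcripts were the largest difference. Of 20 muscle genes, 16 fell, 0 rose, and the median difference was -4.55, which is -4.60 without CD45- replicate 1. In 18 of the 20, every CD45- sample lay below every complete tumor, which held for 6.63% of all genes. The mean level of the list ran from 5.38 to 5.71 in CD45- samples, against 9.24 to 9.93 in complete tumors, and from 5.49 to 5.76 in CD45+ cells.

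The promoters of 3 of these genes are shown because the genes fell together and encode parts of the contractile apparatus. Mylpf and Myh4 encode fast myosin chains, and Acta1 encodes the actin of skeletal muscle. Sequences are from RefSeq on GRCm38.p6, 250 bases before to 50 after the annotated start, 5′ to 3′ on the gene's strand. Capitals mark a MEF2 site, a CArG box (the binding sequence of serum response factor), the E-box CAGCTG bound by myogenic factors, and the TATA sequence TATAAA. Both strands were searched, and TATAAA can overlap a MEF2 site.
Mylpf (chr7:127211358-127211657, plus strand): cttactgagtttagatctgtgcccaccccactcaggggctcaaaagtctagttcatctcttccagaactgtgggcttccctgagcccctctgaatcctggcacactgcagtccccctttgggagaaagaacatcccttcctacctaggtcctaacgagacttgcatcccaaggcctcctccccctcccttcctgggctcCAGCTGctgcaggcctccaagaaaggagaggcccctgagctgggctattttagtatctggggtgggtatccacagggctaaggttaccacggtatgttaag
Myh4 (chr11:67237562-67237861, plus strand): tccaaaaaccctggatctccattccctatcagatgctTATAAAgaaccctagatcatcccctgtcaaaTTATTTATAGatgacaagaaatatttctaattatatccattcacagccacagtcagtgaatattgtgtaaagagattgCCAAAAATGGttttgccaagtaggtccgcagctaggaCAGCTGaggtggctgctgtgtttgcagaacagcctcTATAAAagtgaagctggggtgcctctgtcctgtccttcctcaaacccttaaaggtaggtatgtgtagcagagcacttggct
Acta1 (chr8:123894726-123895025, minus strand): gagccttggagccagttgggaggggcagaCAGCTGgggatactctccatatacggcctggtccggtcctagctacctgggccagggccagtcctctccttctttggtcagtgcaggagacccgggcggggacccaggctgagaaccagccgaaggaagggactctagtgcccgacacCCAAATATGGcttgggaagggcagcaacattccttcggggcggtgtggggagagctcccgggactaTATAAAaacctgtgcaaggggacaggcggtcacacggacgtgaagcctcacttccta

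Of the 16 muscle genes that fell, 13 had a promoter in the table. A MEF2 site occurred in 4 of them (30.8%, against 1.99% of all 15690 genes with a promoter), and a CArG box in 2 (15.4%, against 1.70%). CAGCTG occurred in 7 (53.8%, against 17.95%), and TATAAA in 4 (30.8%, against 14.6%). The promoters shown each hold a motif, while those of Actn2, Tnnc2 and Ryr1 held none. These matches describe letters in this window only.

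Among the fast myosin components, Mylpf, the regulatory light chain of fast fibers, read 3.46, 3.52 and 4.92 in CD45- samples, against 11.00, 11.01, 11.14, 10.61 and 10.56 in complete tumors. The groups were more than 5 units apart at their nearest values. The gene fell by 6.90 (SE 0.34, limma adjusted p 2.25e-05). Myh4, the heavy chain of the fastest fibers, read 4.42, 4.18 and 4.19 in CD45- samples, against 11.15, 10.56, 11.17, 9.73 and 9.76, and fell by 6.21 (SE 0.37). Myl1, a fast essential light chain, fell by 5.87 (SE 0.37). The heavy chain genes Myh1 and Myh8 fell by 4.89 and 5.49, and because Myh1, Myh4 and Myh8 are close paralogs, their separate values are uncertain.

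The regulatory proteins of the thin filament showed the same gap. Tnni2, the fast troponin I that blocks contraction at rest, had the smallest adjusted p of all genes, 9.25e-06 by limma. It read 5.04, 5.79 and 5.71 in CD45- samples, against 10.91, 11.15, 11.27, 11.00 and 10.85 in complete tumors, and fell by 5.52 (SE 0.22). The tropomyosin-binding subunit Tnnt3 fell by 5.76 and the calcium-binding subunit Tnnc2 by 4.77. Acta1, the actin of the thin filament itself, read 6.02, 6.46 and 6.70 in CD45- samples, against 11.14, 11.88, 11.63, 11.26 and 11.47, a fall of 5.09 (SE 0.23).

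Genes of calcium handling and of the filament scaffold fell too. Atp2a1, the pump that returns calcium to the sarcoplasmic reticulum, fell by 5.18, the calcium buffer Pvalb by 4.85, and the release channel gene Ryr1 by 2.54. Ttn, the giant elastic filament, fell by 4.33, and Actn2, which crosslinks actin at the Z disc, by 3.73. Actn2 and Ryr1, and 3 genes outside the list, were picked after their values were seen. Of these 3, the calcium store protein gene Casq1 fell by 2.60, the muscle enolase gene Eno3 by 2.84 and Myf6, a myogenic transcription factor, by 1.92. Myf6 lay under the 30th percentile of mean level. Klhl41, which stabilizes the sarcomere, fell by 4.21. Car3, a carbonic anhydrase of muscle and fat, fell by 4.80.

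The 4 list members that did not pass were Myh2, Neb, Des and Myh7, named here because they complete the list. Myh2, of fast oxidative fibers, had levels of 5.60, 5.26 and 5.42 in CD45- samples, against 7.42, 11.08, 8.69, 8.23 and 9.39 in complete tumors. These groups did not overlap, but the complete tumors spread widely, and the difference of -3.54 had a limma adjusted p of 0.0643. Neb, the nebulin of the thin filament, differed by -1.29 (limma adjusted p 0.0674). Des, an intermediate filament gene that smooth muscle and pericytes also use, read 5.56, 10.14 and 9.71 in CD45- samples, against 9.28 to 10.66 in complete tumors, so that only CD45- replicate 1 was low. Myh7, the slow heavy chain, read 3.32 to 3.59 in CD45- samples and 3.07 to 5.46 in complete tumors, which overlapped.

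**Figure D2:**
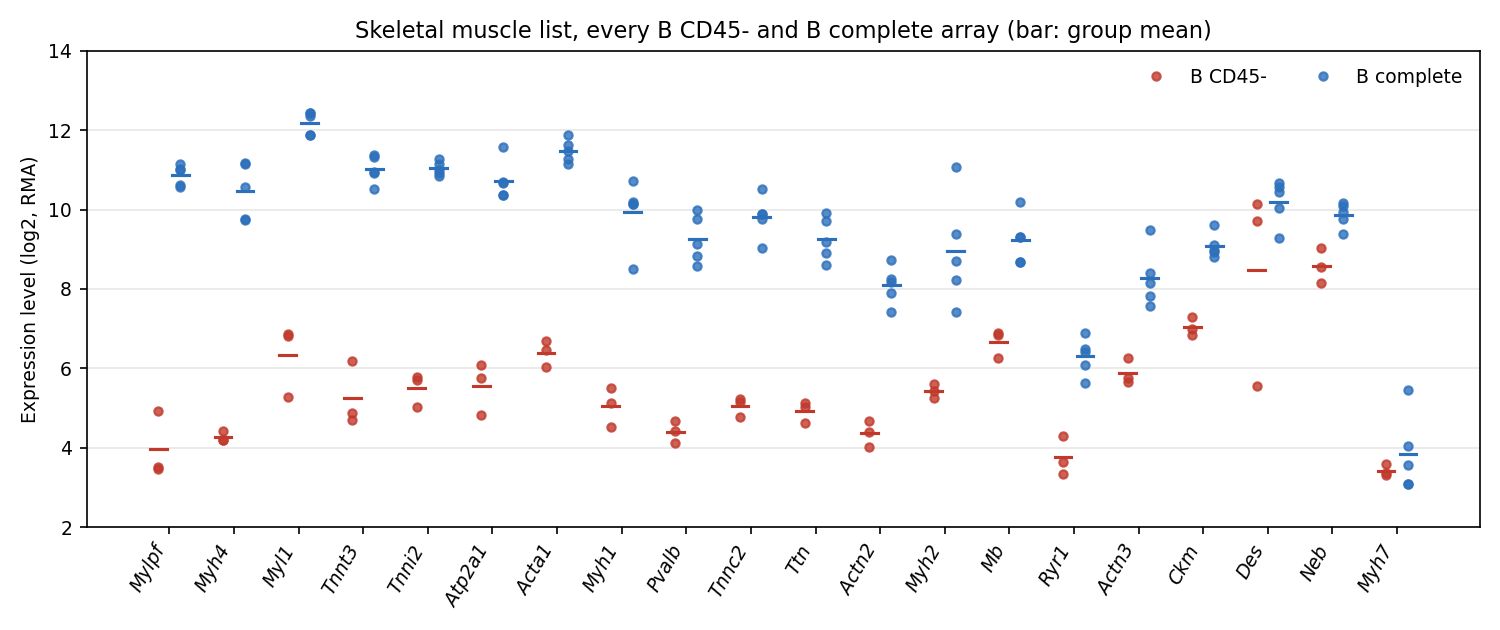
Log2 level (vertical) of the 20 skeletal muscle genes (horizontal, ordered by difference) in each of the 3 B CD45- samples (red) and 5 B complete tumors (blue), with bars at group means. The groups do not overlap for the first 17 genes on the left, from Mylpf to Ckm, nor for Neb, while Des and Myh7 overlap.

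The muscle result did not rest on 1 array. Leaving out any of the 8 arrays left 15 or 16 of the 20 genes lower. Of the 45 muscle genes among those that passed, 38 kept their call without CD45- replicate 1. B complete tumors themselves varied: Atp2a1 was highest in replicate 2, at 11.58, and Myh1 lowest in replicate 1, at 8.51. In B;p38α samples the list's mean level ran from 5.60 to 5.72 in CD45- samples, against 5.61, 8.05 and 10.14 in complete tumors. There 1 of the 3 complete tumors was as low as the sorted cells.

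Fat and hair transcripts also had negative medians, with few or no calls. Among 13 adipocyte genes only Car3 passed, and the median difference was -1.16. An unadjusted p under 0.05 was found for 8 of the 13, all lower (8.41% of all genes did so downward), and 3 had every CD45- sample below every complete tumor (6.63% of all genes). Adipoq, the fat hormone adiponectin, was picked after its values were seen and read 4.86, 5.69 and 5.44 in CD45- samples, against 9.15, 10.08, 6.19, 9.54 and 7.38 in complete tumors. The groups did not overlap, but the complete tumors spanned almost 4 units, and the difference of -3.14 had a limma adjusted p of 0.118. Hp, haptoglobin, a plasma protein that liver and fat make, was chosen after its values were seen. It fell by 3.58 (limma adjusted p 0.0492, and 0.118 without CD45- replicate 1). Among 14 hair follicle genes 0 passed by limma, with 0 at an unadjusted p under 0.05, and the median was -1.31. That list stood at 4.68 to 5.05 in CD45- samples and 4.55 to 9.09 in complete tumors, of which replicate 1 alone was at the top. Its inner root sheath genes Krt71 and Tchh differed by -3.01 and -2.38 without passing.

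Macrophage genes had lower values in CD45- samples throughout their list. All 15 measured macrophage and monocyte genes had a negative difference, with a median of -0.89. Of these, 2 fell and 9 had an unadjusted p under 0.05 (8.41% of all genes did so downward). In 8, every CD45- sample lay below every complete tumor (6.63% of all genes). The list's level ran from 8.91 to 9.47 in CD45- samples, against 9.99 to 10.53 in complete tumors, and from 11.23 to 11.27 in CD45+ cells. Tyrobp, a signaling adaptor of myeloid receptors, read 8.80, 9.12 and 8.43 in CD45- samples, against 10.16, 10.08, 10.52, 10.05 and 10.45, and fell by 1.47 (SE 0.21, limma adjusted p 0.019). The complement gene C1qc read 9.13, 9.43 and 8.70 in CD45- samples, against 10.64, 10.36, 10.53, 10.18 and 10.78, and fell by 1.41 (limma adjusted p 0.0287). Without CD45- replicate 1 the adjusted p was 0.0456 for Tyrobp and 0.059 for C1qc. Without complete tumor replicate 1, 3 or 5 the limma adjusted p was 0.0521, 0.0649 and 0.0565 for Tyrobp and 0.0801, 0.0957 and 0.0714 for C1qc. C1qc also missed the threshold without complete tumor replicate 2 (0.0658) and without CD45- replicate 3 (0.055).

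The largest myeloid falls were in genes typical of tissue-resident macrophages, and all myeloid genes named from here on except Fcna were singled out after their values were seen. Fcna, the lectin ficolin A, read 3.96, 4.96 and 4.00 in CD45- samples, against 9.90, 8.69, 8.95, 7.39 and 9.46 in complete tumors. It read 6.58, 5.96 and 5.97 in CD45+ cells, below every complete tumor. It fell by 4.57 (SE 0.51, limma adjusted p 0.00333). Retnla, a secreted product of alternatively activated macrophages, read 6.34, 8.71 and 7.08 in CD45- samples, against 10.52 to 11.52 in complete tumors, and fell by 3.72. Folr2, a folate receptor of resident macrophages, read 8.07, 7.86 and 7.42 in CD45- samples, against 10.96, 10.18, 10.47, 9.89 and 10.59, and fell by 2.63 (SE 0.27, limma adjusted p 0.00204). These 3 genes had no overlap between groups, which held for every gene that passed.

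The lectin receptor genes Cd209b, Cd209d, Cd209f and Cd209g fell by 3.20, 3.03, 2.95 and 3.08. They are close paralogs, so the separate values are uncertain. Cd209f read 8.50, 8.06 and 7.95 in CD45- samples, against 11.56, 11.10, 11.00, 10.69 and 11.27 in complete tumors, with 9.75, 10.38 and 10.65 in CD45+ cells. The CD45- samples were thus lowest and the complete tumors highest. Cd163, a hemoglobin scavenger receptor of the same macrophages, differed by -2.21 with no overlap, without passing (limma adjusted p 0.0674). F13a1, a coagulation factor subunit of macrophages, fell by 1.83, and the platelet and macrophage chemokine Pf4 by 1.74. Of the 21 myeloid genes, 12 kept their call without CD45- replicate 1, and 1, Cd209g, kept it in all 16 alternatives tried.

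**Figure D3:**
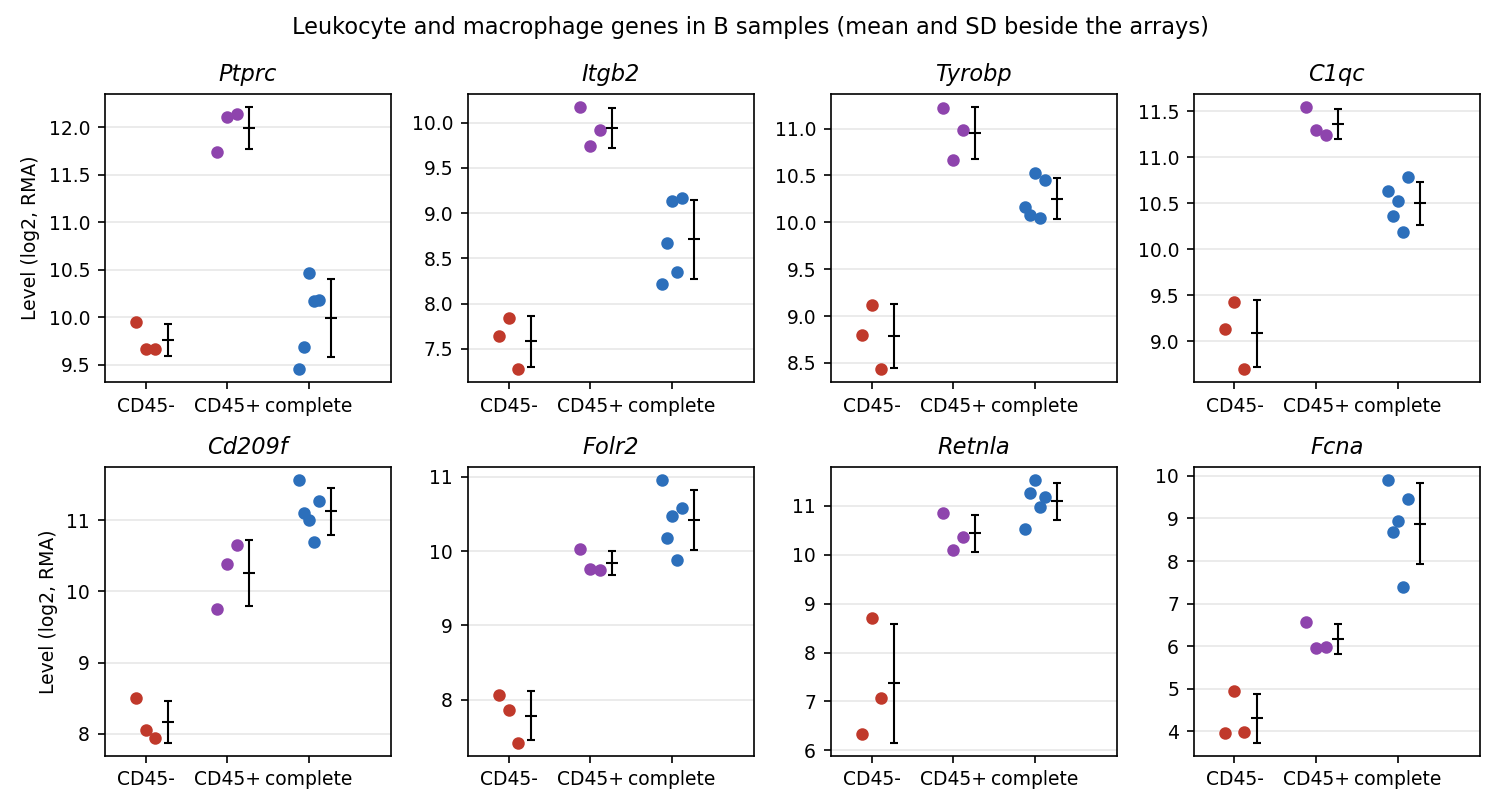
Log2 levels (vertical, own scale per panel) of 8 leukocyte and macrophage genes in each B CD45-, B CD45+ and B complete sample, with group mean and SD beside the points. Ptprc overlaps between CD45- and complete samples, and the other 7 genes are lower in all 3 CD45- samples than in all 5 complete tumors (6.63% of all genes).

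Other immune lists gave no calls. By limma 0 genes of the T cell, dendritic cell, MHC class II, neutrophil, NK cell, B and plasma cell, and mast cell lists passed. An unadjusted p under 0.05 was found for 4 of 11 T cell genes and 1 of 10 mast cell genes in the higher direction, where 8.48% of all genes had one. In the lower direction it was found for 2 of 10 dendritic, 1 of 9 MHC class II and 1 of 12 neutrophil genes, where 8.41% of all genes had one. It was found for 0 of 9 NK cell and 0 of 8 B and plasma cell genes. Medians were 0.37 for T cell, -0.28 for dendritic cell, -0.29 for MHC class II, -0.01 for neutrophil, -0.12 for NK cell, 0.02 for B and plasma cell and -0.29 for mast cell genes. The NK cell, B and plasma cell and mast cell medians were -0.20, 0.08 and -0.63 without CD45- replicate 1. Cd3e, a chain of the T cell receptor complex, differed by 1.09 with every CD45- sample above every complete tumor, without passing (limma adjusted p 0.116). Among 18 interferon response genes 0 passed and the median was -0.61. An unadjusted p under 0.05 was found for 7, all lower (8.41% of all genes did so downward). Outside that list, the interferon-induced genes Ifi27l2a and Oasl1, chosen after their values were seen, fell by 2.21 (limma adjusted p 0.0021) and 1.42 (0.0108 by limma). Both kept their call without CD45- replicate 1. Oasl1 lay under the 30th percentile of mean level.

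Immediate early genes, which cells switch on within minutes of a stimulus and which enzymatic dissociation of tissue is known to induce, had positive differences throughout their list. All 26 had a positive difference, with a median of 0.93, or 0.86 without CD45- replicate 1. Of these, 2 rose, 22 had an unadjusted p under 0.05 (8.48% of all genes did so upward), and 13 had every CD45- sample above every complete tumor (5.53% of all genes). The mean level of the list ran from 9.05 to 9.73 in CD45- samples, against 8.11 to 8.75 in complete tumors. It ran from 9.67 to 10.36 in CD45+ cells, which were dissociated as well. Whether dissociation, bead selection or cell makeup set these levels was not tested.

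Nr4a3, an orphan nuclear receptor gene, read 10.35, 8.77 and 7.97 in CD45- samples, against 5.97, 6.49, 6.64, 6.11 and 6.48 in complete tumors. All CD45- samples were above all complete tumors, with replicate 1 highest, and the gene rose by 2.69 (SE 0.45, limma adjusted p 0.0392, and 0.0179 without that replicate). Jun, a subunit of the AP-1 factor, read 11.89, 11.54 and 11.30 in CD45- samples, against 9.73, 10.10, 9.09, 10.52 and 9.75, and rose by 1.74 (SE 0.31, limma adjusted p 0.049, and 0.118 without CD45- replicate 1). Nr4a3 kept its call in 7 and Jun in 4 of 16 alternatives. The other members did not pass. Egr1, a zinc finger factor, differed by 1.83 (limma adjusted p 0.0648), and Fos, the partner of Jun in AP-1, by 1.57 (limma adjusted p 0.145). Both were picked after their values were seen. Fos overlapped because complete tumor replicate 4 reached 10.50, against 11.17, 10.66 and 10.10 in the CD45- samples. Of the 26 genes, 21 had a RefSeq promoter. The cyclic AMP response element TGACGTCA occurred in 3 of these (14.3%, against 2.63% of all) and the CArG box in 2 (9.52%, against 1.70%). TATAAA occurred in 3 (14.3%, against 14.6%), and the AP-1 site TGACTCA in 0 (against 5.51%). These few matches, too, describe letters in the window only.

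Inflammatory mediators included the gene that rose most. Of 19 cytokine and chemokine genes, 2 rose, and the median was 0.85, or 0.49 without CD45- replicate 1. An unadjusted p under 0.05 was found for 9, all higher (8.48% of all genes did so upward). Ccl3, a chemokine that draws monocytes and T cells, read 10.23, 10.12 and 8.53 in CD45- samples, against 5.53, 4.17, 5.42, 6.46 and 7.37 in complete tumors, and 12.07, 11.27 and 11.29 in CD45+ cells. It rose by 3.84 (SE 0.67, limma adjusted p 0.0458). Tnf, the cytokine TNF, read 8.31, 8.17 and 6.43 in CD45- samples, against 5.09, 4.90, 4.96, 3.87 and 5.32, and rose by 2.81 (SE 0.46, limma adjusted p 0.0354). Replicate 3 was the lowest CD45- sample for both, still above every complete tumor. Without CD45- replicate 1 the adjusted p was 0.12 for Ccl3 and 0.0952 for Tnf, and the calls held in 6 and 7 of 16 alternatives.

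Hcar2, a receptor for ketone bodies and niacin found on myeloid and fat cells, rose by 2.55 (limma adjusted p 0.0173, and 0.0538 without CD45- replicate 1). Bhlhe40, a stress- and clock-linked repressor gene, was singled out after its values were seen. It read 11.59, 11.34 and 11.41 in CD45- samples, against 9.95, 9.96, 10.26, 10.19 and 9.82, and rose by 1.41 (SE 0.18, limma adjusted p 0.00697), a call kept in 15 of 16 alternatives. Levels of Ptprc and of the leukocyte list stand above, and their part in the values of Ccl3, Tnf and Hcar2 was not tested. The heat shock genes Hspa1a and Hspa1b, near-identical copies, differed by 1.76 and 1.83 without passing. Their list of 10 had a median of -0.09 (0.08 without CD45- replicate 1) and 0 calls by limma. At an unadjusted p under 0.05 it held 3 genes higher and 2 lower (8.48% and 8.41% of all genes).

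Genes of neural crest, glia and developmental signaling were among those that rose. Sox8, a neural crest and glial transcription factor gene, read 9.30, 8.56 and 8.84 in CD45- samples, against 5.47, 6.47, 6.68, 6.56 and 6.68 in complete tumors, and rose by 2.53 (SE 0.31, limma adjusted p 0.00633). Every CD45- sample was above every complete tumor, and the call held in 15 of 16 alternatives. Its relative Sox9, a factor of neural crest, cartilage and hair follicle stem cells, read 10.29, 8.66 and 9.47 in CD45- samples, against 7.40, 7.82, 6.61, 7.32 and 7.04, and rose by 2.24 (SE 0.38, limma adjusted p 0.0392). Ptch1, the Hedgehog receptor and itself a Hedgehog target, rose by 1.68 (limma adjusted p 0.0334). Without CD45- replicate 1 the adjusted p was 0.0256 for Sox8, 0.0749 for Sox9 and 0.0772 for Ptch1. These rises were not confined to the CD45- fraction. B CD45+ cells also exceeded B complete tumors, by 1.46 for Sox8 (limma adjusted p 0.00868) and 0.97 for Sox9 (0.0359 by limma). For Ptch1 that difference was 0.70 (limma adjusted p 0.0538).

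Most other genes of these cell types did not pass. Of 17 neural crest and dedifferentiated melanoma genes only Sox9 passed, with a median of 0.16. The 12 Schwann cell and glia genes had 0 calls by limma and a median of 0.38. Of these, 2 had an unadjusted p under 0.05, both higher (8.48% of all genes did so upward). Leaving out CD45- replicate 1 gave medians of 0.29 for neural crest and 0.18 for glia genes. Pigment genes, which mark differentiated melanocytes, did not separate the groups. Of 16 such genes 0 passed by limma, and the median was 0.05, or -0.04 without CD45- replicate 1. At an unadjusted p under 0.05, 2 were higher and 3 lower (8.48% and 8.41% of all genes). Their list level ran from 5.82 to 6.43 in CD45- samples and from 5.80 to 7.34 in complete tumors. Mlana, a melanosome protein gene, and Ednrb, the endothelin receptor of melanoblasts, differed by -1.09 and -1.21 without passing.

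Matrix and cell surface genes made up 6 of the 25 that rose. Of these 6, 5 were also higher in B CD45+ cells than in B complete tumors (limma adjusted p under 0.05). Those differences were 1.75 for Scube1, 1.56 for Thbs4, 1.62 for Nt5e, 1.01 for Ltbp1 and 0.54 for Dag1. The exception was Ltbp3, at 0.27 (limma adjusted p 0.317). Thbs4, a thrombospondin of tendon, vessel and nerve matrix, read 11.20, 10.42 and 10.64 in CD45- samples, against 7.40, 7.45, 7.64, 8.52 and 9.01 in complete tumors, and rose by 2.75 (SE 0.40, limma adjusted p 0.0178). Scube1, a secreted and membrane-bound EGF-domain protein gene, read 10.30, 8.58 and 9.70 in CD45- samples, against 6.46, 5.97, 6.65, 7.20 and 7.43, and rose by 2.78 (SE 0.43, limma adjusted p 0.0255). Neither gene overlapped between the groups, nor did any other gene that passed. Nt5e, the ectoenzyme CD73 that makes adenosine, read 8.25, 8.03 and 8.21 in CD45- samples, against 6.73, 6.05, 5.48, 6.22 and 5.92, and rose by 2.08 (SE 0.27, limma adjusted p 0.00763). Ltbp1 and Ltbp3, which hold latent TGF-β in the matrix, rose by 1.70 and 1.19, and Dag1, the laminin receptor dystroglycan, by 1.23. Ltbp3 and Dag1 were chosen after their values were seen. Without CD45- replicate 1, Nt5e, Ltbp3 and Dag1 kept their calls, while the adjusted p was 0.059 for Thbs4, 0.0656 for Scube1 and 0.0508 for Ltbp1.

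**Figure D4:**
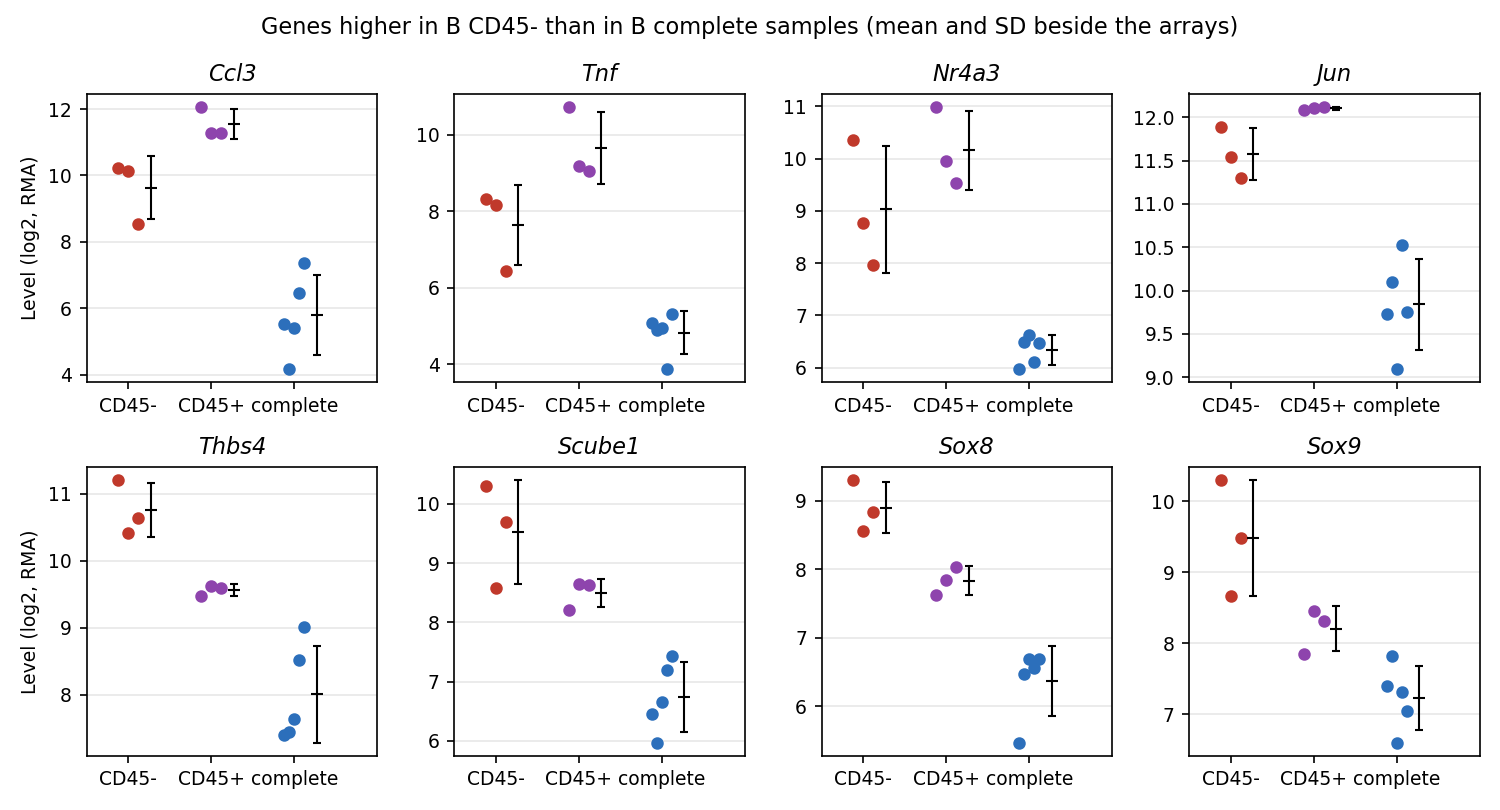
Log2 levels (vertical, own scale per panel) of 8 genes that rose, in each B CD45-, B CD45+ and B complete sample, with group mean and SD beside the points. All 3 CD45- samples lie above all 5 complete tumors in every panel (5.53% of all genes), as for every gene that rose. CD45+ cells have the highest mean for Ccl3, Tnf, Nr4a3 and Jun and lie between the other means for Thbs4, Scube1, Sox8 and Sox9.

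The stromal lists had medians from -0.34 to 0.27. By limma 0 genes passed among 18 collagen, 14 fibroblast, 15 elastic fiber and matrix glycoprotein, 16 matrix protease, 15 endothelial, 7 lymphatic endothelial, and 13 pericyte and smooth muscle genes. At an unadjusted p under 0.05 they held 4, 1, 4, 4, 1, 0 and 1 genes higher (8.48% of all genes). In the lower direction they held 0, 3, 1, 0, 1, 1 and 1 (8.41% of all genes). Every CD45- sample lay above every complete tumor for 3, 0, 1, 4, 1, 0 and 0 of their genes (5.53% of all genes). Every one lay below for 0, 2, 1, 0, 0, 1 and 0 (6.63% of all genes). Of the 18 collagen genes, 15 had a positive difference. Their medians were 0.22, 0.05, 0.05, 0.27, -0.20, -0.26 and -0.34. Without CD45- replicate 1 the endothelial median was 0.37, the pericyte median 0.06, and that of elastic fiber and matrix glycoprotein genes 0.27. Single members lay far from their list. Dpt, the fibroblast matrix protein dermatopontin, and Dpp4, a marker of upper dermal fibroblasts, differed by -1.91 and -1.35, and Lyve1, a hyaluronan receptor of lymphatic vessels and some macrophages, by -2.07. None of these passed, with limma adjusted p of 0.134, 0.0955 and 0.0739.

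Signaling and metabolic lists held no calls but some shared directions. Among 15 genes induced by ERK, the kinase downstream of BRAF, 0 passed by limma and the median was 0.60. An unadjusted p under 0.05 was found for 8, all higher (8.48% of all genes did so upward). The ETS factor gene Etv5 and the ERK phosphatase gene Dusp4 differed by 1.00 and 0.96. All 22 oxidative phosphorylation genes had a negative difference and 0 passed by limma. Of these, 11 had an unadjusted p under 0.05 (8.41% of all genes did so downward). The median was -0.55. It was -0.31 without CD45- replicate 1, a move of more than 1.5 times. The respiratory chain subunit genes Cox7a2 and Ndufa1 differed by -0.87 and -0.83 without passing. Mitosis genes had a median of 0.01 and DNA replication genes one of -0.47, which were 0.28 and -0.05 without CD45- replicate 1. Medians were 0.02 for hypoxia and glycolysis, -0.15 for p53 targets, -0.13 for the unfolded protein response and -0.23 for oxidative stress genes, each with 0 calls by limma. Leaving out CD45- replicate 1 gave -0.02 for hypoxia and glycolysis, -0.07 for p53 targets and 0.00 for oxidative stress genes. At an unadjusted p under 0.05 the 6 lists from mitosis on held 0, 0, 2, 1, 1 and 3 genes higher (8.48% of all genes). In the lower direction they held 2, 4, 3, 1, 1 and 2 (8.41% of all genes).

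Epithelial and nerve lists had no calls either. Medians were -0.12 for basal keratinocyte, -0.31 for differentiated keratinocyte, -0.02 for sebaceous gland and 0.25 for neuronal genes. At an unadjusted p under 0.05 they held 0, 0, 2 and 1 genes higher (8.48% of all genes). In the lower direction they held 0, 2, 2 and 0 (8.41% of all genes). The basal keratinocyte and sebaceous gland medians were 0.05 and 0.15 without CD45- replicate 1. The 3 measured Y-linked genes had mean levels from 2.79 to 8.60 in CD45- samples and from 2.76 to 9.29 in complete tumors, so both groups held high and low samples, and their median difference was 0.60, or 0.31 without CD45- replicate 1. Only 2 red blood cell genes were measured. Alas2, the heme synthesis enzyme of red cell precursors, read 8.72, 8.99 and 11.76 in CD45- samples, against 7.13, 6.43, 6.80, 6.77 and 7.09 in complete tumors. The groups did not overlap and replicate 3 was far above the other CD45- samples. The difference of 2.98 did not pass (limma adjusted p 0.0706). Of the 25 genes that rose, 7 lay under the 30th percentile of mean level, among them all 4 olfactory receptor genes, such as Olfr453, at 5.80, 4.83 and 4.43 in CD45- samples, against 3.00 to 3.22 in complete tumors.

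Single arrays decided many calls. Leaving out complete tumor replicates 1 to 5 in turn kept 7, 5, 3, 11 and 8 of the 25 calls, and leaving out CD45- replicates 1 to 3 kept 11, 10 and 17. For the 78 genes that fell, the same omissions kept 51, 56, 55, 64 and 54, and 54, 58 and 60.

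The same contrast in B;p38α tumors, which share no sample with the B tumors, gave 0 genes past the threshold by limma (0%), with an unadjusted p under 0.05 for 2286 genes in the higher and 1494 in the lower direction and a smallest adjusted p of 0.0652. The test of whether the contrast differed between genotypes called 0 genes (0%) by limma, with 1582 at an unadjusted p under 0.05 and a smallest adjusted p of 0.606. Without B complete replicate 4 it called 10. For all 45 muscle genes and all 21 myeloid genes that fell in B, the B;p38α difference was also negative, from -4.71 to -0.57 and from -3.20 to -0.63. Of the genes that rose in B, the 6 of inflammation and stress differed there by 0.52 to 1.71. The 6 of matrix and cell surface differed by 0.58 to 1.67, and the 3 of SOX factors or a Hedgehog receptor by 0.54 to 1.37. The 4 olfactory receptors ran from -0.11 to 0.87 and the 6 others from 0.21 to 1.08. The leukocyte list had a median of -1.33, against -0.39 in B. The share of all genes with the same sign was not counted. Ptprc differed by -1.90 in B;p38α, where it read 6.80, 8.37 and 8.63 in CD45- samples, against 9.41, 10.30 and 9.79 in complete tumors. Those groups did not overlap, unlike in B, but the test of the difference between genotypes gave 1.67 with a limma adjusted p of 0.606. Immediate early genes ran from 9.03 to 9.75 in B;p38α CD45- samples, against 8.07 to 8.59 in complete tumors. The 5 genes with the smallest interaction p were Plch1, Peg3, Hydin, Mctp1 and Hspb8, with B minus B;p38α contrasts of -1.25, -2.12, -1.42, 2.07 and -2.29, none of which passed.

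**Figure D5:**
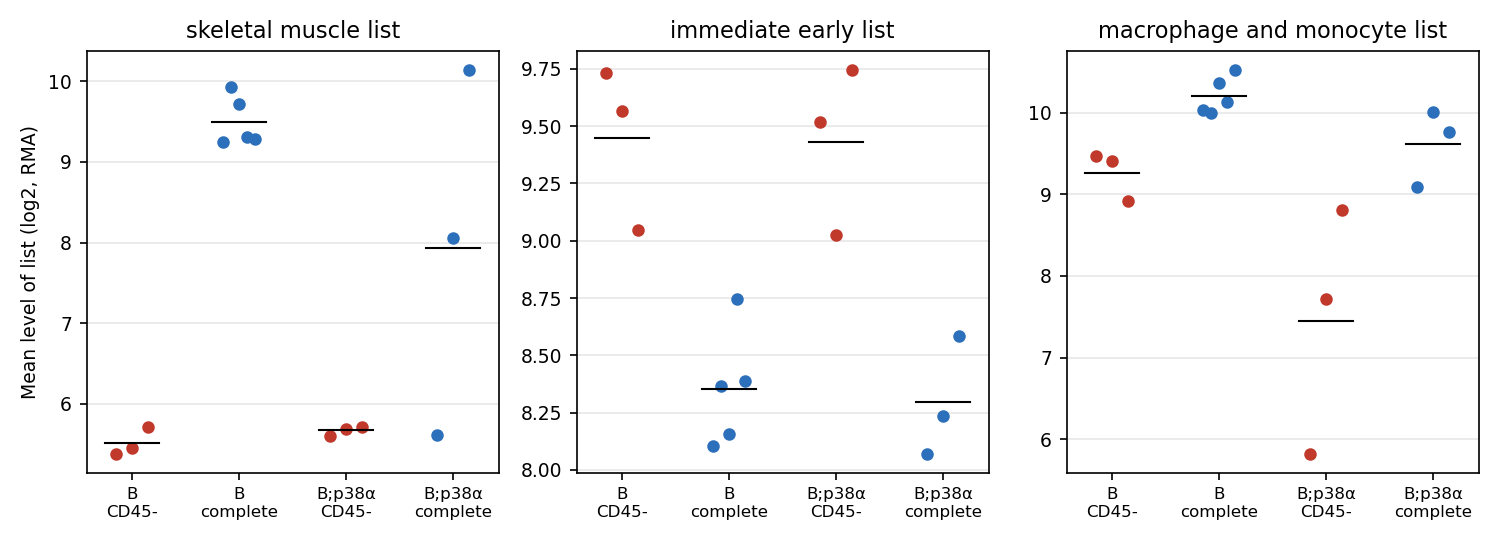
Mean log2 level (vertical) of the skeletal muscle, immediate early, and macrophage and monocyte lists in each CD45- (red) and complete (blue) sample of B and B;p38α tumors, with bars at group means. Muscle levels are low in all CD45- samples and in 1 of 3 B;p38α complete tumors, and immediate early levels are at least 9.03 in all CD45- samples, against at most 8.75 in complete tumors.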

How the data were processed

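Expression was measured on 20 microarrays, of which 8 enter the comparison. Per the labels' protocols, RNA was column-purified, checked for integrity, converted to cDNA and biotin-labeled. The authors deposited log2 levels made with RMA, according to the submitters' processing notes. Background correction, normalization and probe summarization were thus complete, and a gene's level is relative to the rest of its array. The sources used here give neither the set of arrays normalized together nor the array's genome build.

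Of 21244 rows, 19570 had 1 symbol, 0 several and 1674 none. All 19570 matched a RefSeq gene of GRCm38.p6 through their entrez number, which changed 0 symbols. Per symbol, the row of highest mean across the 20 arrays was used, leaving out 66 rows and 0 further columns. Groups came from sample titles. Differences were tested with limma 3.58.1 (lmFit, eBayes) under R 4.3.3, without covariates, at a Benjamini-Hochberg adjusted p under 0.05 over 19504 genes, with no filter on dim genes. Ptprc was also tested by exact permutation. The 40 gene lists hold 586 distinct genes, of which 535 were measured, and were counted, not tested. The group, the lists and the roles were chosen with earlier results of these data known. Named by rule were Ptprc, the 15 largest differences in each direction among genes that passed (leaving out symbols made of Gm and digits or ending in Rik), per list up to 4 members that passed or else the 2 largest, and the 5 smallest interaction p. Arrays have no depth, and precision is limited by their number. On simulated arrays with 19504 genes the test recovered 22% of 100 genes changed by 1 log2 unit and 71% of 100 changed by 2, with 5 false calls. These rates describe the simulated arrays only. Alternatives were all 6 groups in one fit, a replicate block, dim genes left out, repeated quantile normalization, array weights, every row, a Y-linked covariate (the animals' sex is not given), a trended robust variance, and each array left out. Figures used matplotlib 3.10.9 in Python 3.11.15.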

Additional observations from a re-analysis of the deposited data

Results flagged for a closer look

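Among 106 named genes, 9 had 1 complete tumor far from the other 4, by Dixon's test of the highest or lowest value at its 95% critical level. Chance flags about 1 in 20 independent groups. These genes share arrays, and many were named for the size of their difference, so the 9 cannot be set against that rate. Replicate 1 was the array apart for 6 of the 9 genes. It was low for Sox8, at 5.47, and for Myh1, at 8.51. It was high for the epidermal genes Trp63, at 8.71, Dsc1, at 9.92, and Dsg1a, at 9.69, and for the stress gene Chac1, at 7.05. This replicate also had the highest hair follicle list level, 9.09. Replicate 2 was high for the muscle calcium pump gene Atp2a1, at 11.58. Replicate 5 was apart for the neutrophil peptide gene Camp, at 6.82, and for the matrix protease gene Mmp14, at 11.51.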

How the results depend on the processing

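The counts of 25 higher and 78 lower genes depended on the processing. They were 399 and 534 with all 6 groups in one fit, 83 and 162 without dim genes, and 92 and 191 with a trended robust variance. With the Y-linked covariate they were 11 and 59. With the replicate number as a block they were 1 and 16. Deviations of same-numbered samples correlated at -0.069, -0.174 and -0.045, and those of different numbers at -0.071 to 0.147. With so few arrays these correlations cannot show whether samples share an animal. The mean Y-linked level of replicate 2 was 8.60 in CD45- and 3.72 in complete samples, so the samples numbered 2 are unlikely to share an animal. The titles do not pair the samples, and the numbers were not taken to do so. Leaving out each array in turn gave 3 to 99 higher and 52 to 82 lower genes, and 0 to 10 genes for the interaction. Quantile normalization gave 23 and 89, array weights 36 and 95, and every row 22 and 74. Skeletal muscle genes lower numbered from 11, under the block, to 18, and 14 of the 45 muscle genes kept their call in all 16 alternatives. None of the 25 genes that rose did, which the replicate block alone fixed, as it kept 0 of them. Dim genes also cannot be called in the fit that leaves them out. Sox8 and Bhlhe40 kept their call in 15 of the 16. Immediate early genes higher numbered from 0 to 10 and macrophage genes lower from 0 to 6. Ptprc stayed on its side of the threshold and kept its sign in every alternative run. Among named genes, signs turned only for some that had not passed. Nefl was at 0.020 with array weights. Over the arrays left out in turn, differences ran from -3.04 to 0.36 for Nefl, from -1.55 to 0.12 for Retnlg, from -0.058 to 1.68 for Rsad2, from -0.41 to 1.89 for Kdm5d and from -0.65 to 2.66 for Uty. The cause of these shifts was not tested. Signal over background was not measured here, which limits what can be said of dim genes.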
